A study of Danio rerio with 4 samples.

Results

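The matrix metalloproteinases described here are 9 of 32434 genes counted in zebrafish (Danio rerio) fins: MMP2, MMP9, MMP11, mmp11b, mmp13a, MMP14 under 2 gene IDs, MMP15 (ENSDARG00000051962) and mmp30. They were chosen by name and gene ID and not by a rule on their values, though earlier results of these data were known. All 9 passed the filter on low counts, as did 25594 genes in all. Symbols are printed as the symbol table gives them. Where 2 gene IDs carry 1 symbol, as for MMP14, the files do not say which is the a and which the b copy. mmp13b, which the choice by name also covers, was not analysed here.

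The regenerating group consisted of 2 pools of 10 fins taken 4 days after amputation, and the uninjured group of 2 pools of 10 fins with no treatment. All fish were wild type of strain EK, and razor blades had shortened the regenerating fins to 50% of their length. RNA was read as 50 bp single-end libraries of whole fins. The labels give neither the age of the fish nor whether pools came from separate fish, so the spread behind the p-values may be technical.

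Matrix metalloproteinases are zinc-dependent enzymes that cut collagens and other proteins of the extracellular matrix. Most are made as inactive precursors, held shut by a propeptide that another protease removes. Some are secreted, and others stay anchored in the cell membrane. In fins and limbs that regrow, they are known for remodelling matrix in the wound epidermis and the blastema, the mass of dividing cells from which the lost part grows.

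Library totals were 47858392 and 48247042 counts for regenerating pools, against 43836649 and 34290386 counts for uninjured pools. A count of 3 corresponded to 0.0562 and 0.0599 CPM (counts put on a common library size) in regenerating and 0.0787 and 0.0880 CPM in uninjured libraries, which covers counting error only. Counting noise alone would give a chi-square per degree of freedom near 1 between pools of a group, and the value was 18.5 between regenerating pools and 39.2 between uninjured pools. The epidermal keratin gene krt5 averaged 22598 ± 2437 CPM in regenerating and 61846 ± 10250.2 CPM in uninjured fins (SD, n = 2 pools each), so epidermal RNA was present in all 4 libraries.

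Of the 9 metalloproteinase genes, 8 were higher and 1, mmp30, was lower in regenerating fins by edgeR's quasi-likelihood test at an adjusted p under 0.05. Across all genes tested, 59.6% were called by the same rule, 29.5% as higher and 30.1% as lower. The increase was at least 4-fold for 3 of the 9 genes and for 4.77% of all genes. The 2 regenerating pools were each above the 2 uninjured pools for the 8 genes and below them for mmp30, an arrangement found for 40.3% and 41.0% of all genes tested. The median log2 fold change was 1.83 over the 9 genes and -0.02 over all genes. The summed level of the 9 genes was 3882 ± 472 CPM in regenerating and 881 ± 28.8 CPM in uninjured fins (SD, n = 2 pools each), a ratio of 4.40. Whole fins were read, so a change in the number of cells of a type and a change in RNA per cell cannot be told apart.

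**Figure D1:**
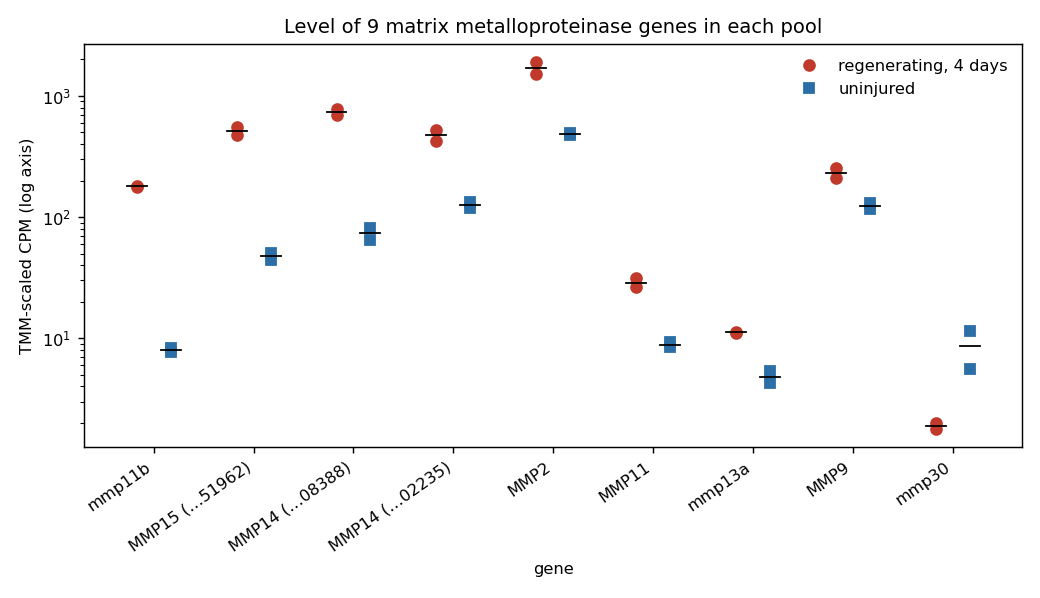
Level of each of the 9 genes in each pool, in TMM-scaled CPM on a log axis, with regenerating pools as circles, uninjured pools as squares and the group means as short lines; figures in brackets are the last digits of the gene ID. For 8 genes both circles lie above both squares, and for mmp30 both lie below, with the squares at 11.6 and 5.60 CPM.

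Of the 9 genes, both MMP14 genes and MMP15 encode membrane-anchored enzymes. MMP14 encodes membrane type 1 metalloproteinase, which cuts fibrillar collagen at the cell surface and activates the MMP2 precursor in mammals. One of its gene IDs (ENSDARG00000008388) stood at 774 and 689 CPM in the regenerating pools, against 64.8 and 81.6 CPM in the uninjured pools. The regenerating pools were each far above the uninjured pools, with a log2 fold change of 3.32 ± 0.19 (SE), which is 9.99-fold (edgeR quasi-likelihood, adjusted p = 6.24e-06). The other MMP14 gene (ENSDARG00000002235) had 524 and 425 CPM in regenerating pools, against 119 and 134 CPM in uninjured pools. Its groups also did not overlap, and it rose by 1.91 ± 0.17, or 3.75-fold (edgeR quasi-likelihood, adjusted p = 4.36e-05). The 95% intervals of the log2 fold changes were 2.88 to 3.76 for the first and 1.52 to 2.30 for the second.

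MMP15 (ENSDARG00000051962), which encodes membrane type 2 metalloproteinase, had 555 and 478 CPM in regenerating pools, against 43.8 and 50.9 CPM in uninjured pools. Both regenerating values were high, and the gene rose by 3.45 ± 0.17 on the log2 scale, or 10.9-fold (edgeR quasi-likelihood, adjusted p = 3.64e-06). Of all genes tested, 0.985% had a greater log2 fold change. For the first MMP14 gene that share was 1.13%.

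Stromelysin 3, the product of MMP11 genes, differs from most secreted family members in that furin-like proteases activate it before it leaves the cell. mmp11b (ENSDARG00000016718) had the greatest log2 fold change of the 9 genes. It stood at 176 and 182 CPM in regenerating pools, against 8.26 and 7.75 CPM in uninjured pools. The uninjured values rested on 315 and 264 counts. The gene rose by 4.48 ± 0.14 (SE), which is 22.3-fold (edgeR quasi-likelihood, adjusted p = 1.60e-06), and 0.367% of all genes tested had a greater log2 fold change. The related MMP11 gene (ENSDARG00000026325) had 31.3 and 26.2 CPM in regenerating pools, against 8.45 and 9.24 CPM in uninjured pools. Its pools separated by group as well, at a smaller distance, with a log2 fold change of 1.70 ± 0.14 or 3.25-fold (edgeR quasi-likelihood, adjusted p = 3.39e-05).

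The gelatinases MMP2 and MMP9 cut denatured collagen and type IV collagen of basement membranes. MMP2 (ENSDARG00000017676), typically made by mesenchymal cells, had 1889 and 1527 CPM in regenerating pools, against 470.4 and 491 CPM in uninjured pools. Both regenerating pools were high, and MMP2 rose by 1.83 ± 0.21, or 3.55-fold (edgeR quasi-likelihood, adjusted p = 0.000154). MMP9 (ENSDARG00000042816), which in other settings is made by wound epidermis and by white blood cells, had 254 and 208 CPM in regenerating pools, against 130.4 and 117 CPM in uninjured pools. Its groups lay closer together than those of the other 7 genes that rose, with a log2 fold change of 0.90 ± 0.15 or 1.87-fold (edgeR quasi-likelihood, adjusted p = 0.00117). With any 1 library left out, its log2 fold change was 0.76 to 1.04.

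mmp13a (ENSDARG00000012395), a gene for collagenase 3, which cuts intact fibrillar collagen, was read at low levels. It had 11.0 and 11.3 CPM in regenerating pools, against 4.28 and 5.34 CPM in uninjured pools, from 163 to 603 counts per library. The groups did not overlap, and the gene rose by 1.22 ± 0.16, or 2.32-fold (edgeR quasi-likelihood, adjusted p = 0.000298).

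mmp30 (ENSDARG00000045887) was the member that fell. It had 1.80 and 2.01 CPM in regenerating pools, against 11.6 and 5.60 CPM in uninjured pools. The regenerating pools were low and close to each other, while the first uninjured pool stood well above the second, at 441 and 191 counts. Its log2 fold change was -2.18 ± 0.32 (SE), which is 4.52-fold lower (edgeR quasi-likelihood, adjusted p = 0.000539). Without the first uninjured pool it was -1.55, which is 2.93-fold lower (edgeR quasi-likelihood, adjusted p = 0.000273). mmp30 and mmp13a lie close together in the RefSeq annotation of assembly GRCz12tu, with 1 protein-coding gene between them, and these near neighbours changed in opposite directions.

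**Figure D2:**
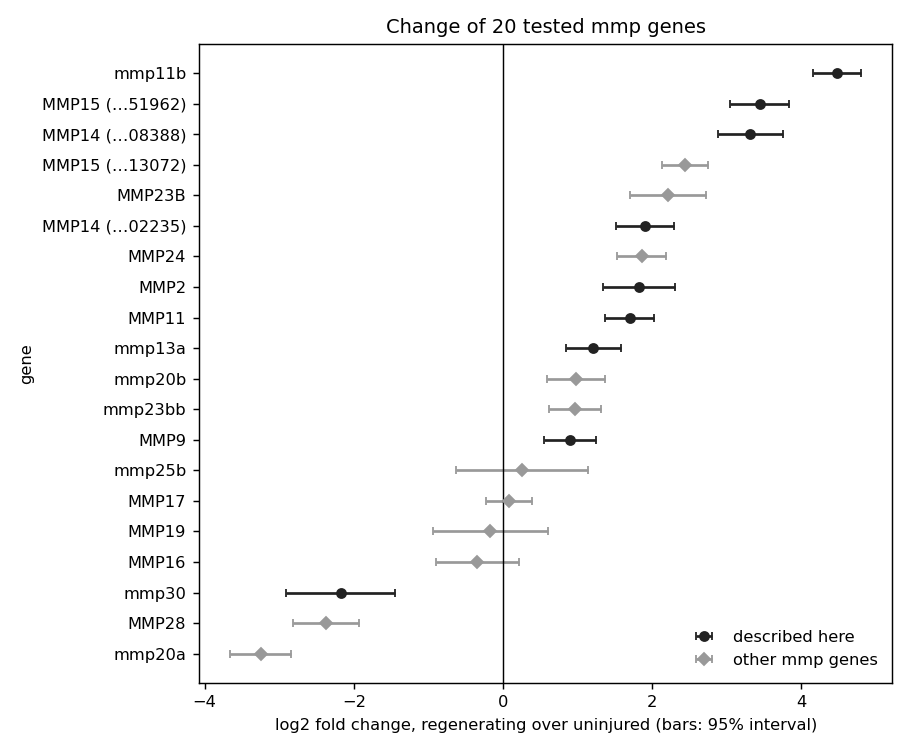
Log2 fold change, regenerating over uninjured, of the 20 tested genes with an mmp symbol, with 95% intervals as bars, circles for the 9 genes described here and diamonds for the other 11. mmp11b lies furthest to the right at 4.48 and mmp20a furthest to the left at -3.25, and the intervals of mmp25b, MMP17, MMP19 and MMP16 cross 0.

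The other genes with an mmp symbol numbered 12, of which 11 were tested. Of these, 5 rose, 2 fell and 4 did not pass, which is near the 59.6% called among all genes tested. Their median log2 fold change was 0.25. A further membrane-type gene, MMP15 (ENSDARG00000013072), rose by 2.44 ± 0.13, with averages of 29.3 ± 1.99 CPM in regenerating and 5.40 ± 0.0425 CPM in uninjured fins (SD, n = 2 pools each). MMP23B rose by 2.22 ± 0.22 and MMP24, another membrane-type gene, by 1.86 ± 0.14. mmp23bb and mmp20b rose by 0.97 ± 0.15 and 0.98 ± 0.17. For these 5 genes the adjusted p ran from 5.15e-06 to 0.00128 (edgeR quasi-likelihood).

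The genes that fell were mmp20a and MMP28. In mammals MMP20 encodes enamelysin, a protease of forming tooth enamel, and MMP28 encodes epilysin, which is found in skin keratinocytes. mmp20a had 1.04 and 1.22 CPM in regenerating pools, against 10.4 and 11.2 CPM in uninjured pools. Its pools were close within each group, and it fell by 3.25 ± 0.18, which is 9.52-fold (edgeR quasi-likelihood, adjusted p = 4.84e-06). MMP28 had 4.95 and 4.74 CPM in regenerating pools, against 29.9 and 20.5 CPM in uninjured pools, with a log2 fold change of -2.38 ± 0.19 (edgeR quasi-likelihood, adjusted p = 2.86e-05). As for mmp30, the first uninjured pool was the higher one.

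MMP16, MMP17, MMP19 and mmp25b did not pass the test, and all of these except MMP19 are membrane-type genes. MMP17, a membrane-type gene with a lipid anchor, had a log2 fold change of 0.08 with a 95% interval of -0.23 to 0.40 at 8.90 ± 0.0222 CPM in regenerating and 8.41 ± 0.352 CPM in uninjured fins (SD, n = 2 pools each). The others averaged 1.26 CPM or less in each group, and their intervals reached from -0.94 to 0.61 for MMP19, from -0.90 to 0.22 for MMP16 and from -0.63 to 1.14 for mmp25b. mmp25a had 1 count in every library and was not tested.

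Related genes were set against each other inside each library, where no scaling between libraries is needed. The ratio of the 2 MMP14 genes (ENSDARG00000008388 over ENSDARG00000002235) was 1.48 and 1.62 in regenerating pools and 0.544 and 0.611 in uninjured pools. The gene with fewer counts in uninjured fins was thus the one with more in regenerating fins. On the log2 scale the ratio differed by 1.43 between groups, with means of 0.63 ± 0.09 in regenerating and -0.79 ± 0.12 in uninjured fins (SD, n = 2 pools each).

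mmp11b and MMP11 had similar counts in uninjured fins and not in regenerating fins. Their ratio was 5.61 and 6.92 in regenerating pools and 0.978 and 0.838 in uninjured pools, a difference of 2.78 on the log2 scale. For the MMP15 genes (ENSDARG00000051962 over ENSDARG00000013072) the ratio was 18.1 and 17.1 in regenerating pools, against 8.06 and 9.48 in uninjured pools.

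mmp20a and mmp20b are adjacent protein-coding genes in the RefSeq annotation of GRCz12tu, and they changed in opposite directions. The ratio of mmp20b to mmp20a was 7.71 and 6.57 in regenerating pools and 0.346 and 0.407 in uninjured pools, a difference of 4.25 on the log2 scale. The ratio of MMP23B to mmp23bb was 1.53 and 1.41 in regenerating pools, against 0.743 and 0.494 in uninjured pools. The groups did not overlap in these 5 pairs. Each ratio has the gene with the larger log2 fold change on top, so their shared direction follows from that order. Over single genes 40.3% of those tested had regenerating pools above and 41.0% below, and the share over other gene pairs was not computed. With 2 pools a group the exact two-sided permutation test gave p = 0.333 for each pair, the smallest it can give, so none can pass a threshold of 0.05.

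**Figure D3:**
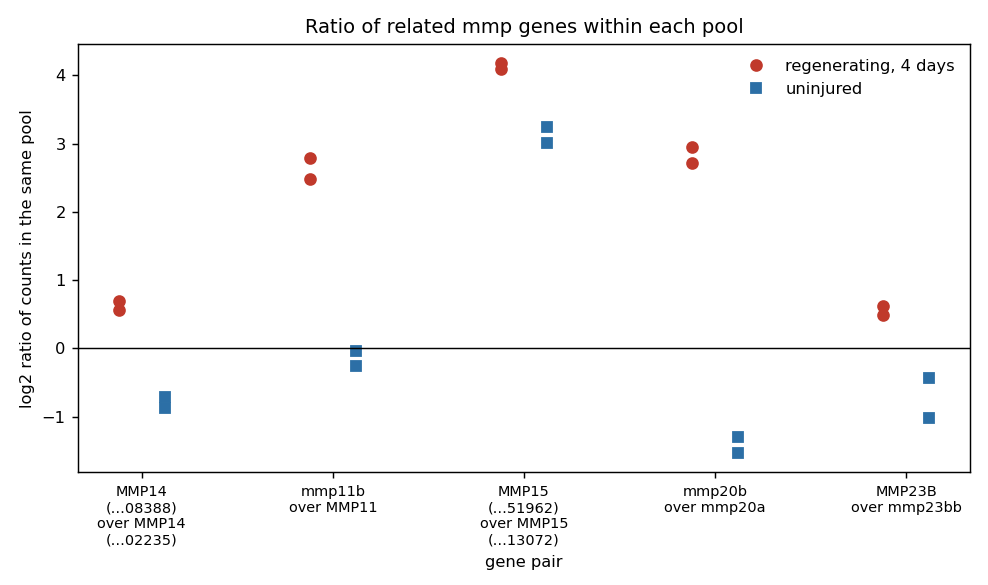
Log2 ratio of the counts of related genes within each pool, with regenerating pools as circles and uninjured pools as squares, and 0 marking equal counts. The gene with the larger log2 fold change stands first in each pair, so circles above squares in all 5 pairs follow from that order. The distance is greatest for mmp20b over mmp20a, with group means of 2.83 and -1.41.

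The reads of the 9 genes together made up 0.441% and 0.392% of all counts in regenerating pools and 0.0749% and 0.0896% in uninjured pools. Their make-up also differed between the groups. These are shares of reads, which depend on transcript length, so they are compared only between groups for the same gene. MMP2 took 43.9 ± 1.26% of the 9-gene reads in regenerating fins and 54.5 ± 0.116% in uninjured fins, although its level rose (SD, n = 2 pools each). The share of MMP9 was 5.95 ± 0.122% in regenerating and 14.0 ± 1.56% in uninjured fins.

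The shares that were larger in regenerating fins belonged to 3 genes. MMP14 (ENSDARG00000008388) took 18.9 ± 0.752% of the reads in regenerating fins and 8.29 ± 1.08% in uninjured fins. MMP15 (ENSDARG00000051962) took 13.3 ± 0.218% in regenerating and 5.36 ± 0.395% in uninjured fins, and mmp11b took 4.64 ± 0.675% in regenerating and 0.909 ± 0.0711% in uninjured fins (SD, n = 2 pools each). The shares of the other MMP14 gene, MMP11 and mmp13a were smaller in regenerating fins, by 2.12, 0.262 and 0.255 percentage points of the group means. The share of mmp30 was 0.0426% and 0.0565% in regenerating pools, against 1.34% and 0.621% in uninjured pools, so the size of its difference depends on the uninjured pool taken. These shares are parts of one total and cannot move independently.

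**Figure D4:**
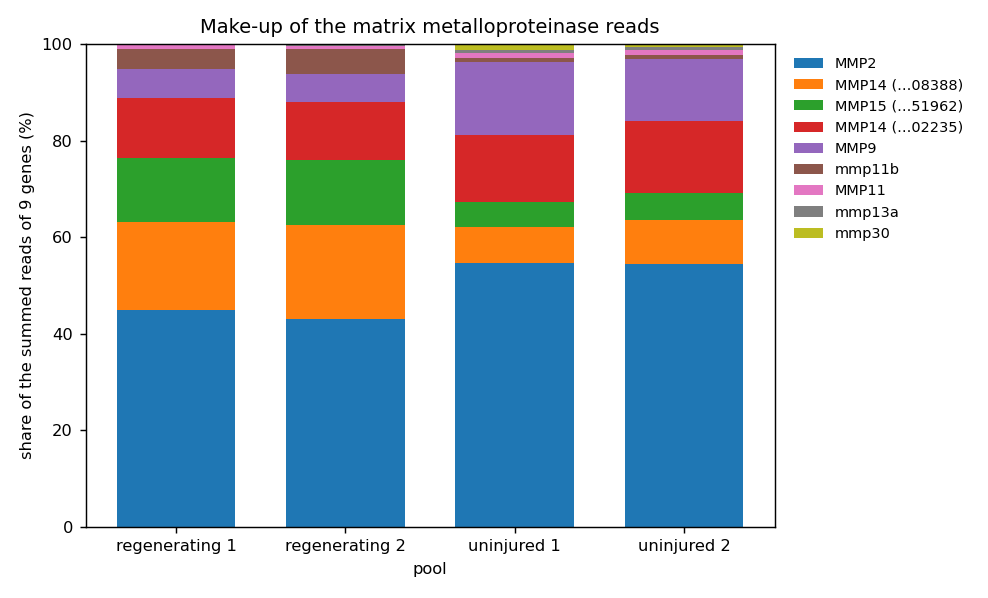
Share of each gene in the summed reads of the 9 genes, in percent, 1 bar for each pool. The band of MMP2 is narrower in regenerating (44.8% and 43.0%) than in uninjured pools (54.6% and 54.5%).

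In mammals MMP14 activates the MMP2 precursor in a complex with the inhibitor TIMP2. The reads of these 3 were therefore set against each other, a choice made after their values were seen. Summed over its 2 gene IDs, MMP14 had 0.687 and 0.730 reads for each MMP2 read in regenerating pools, against 0.391 and 0.438 in uninjured pools. TIMP2, also summed over 2 gene IDs, had 0.448 and 0.489 reads for each MMP14 read in regenerating pools and 1.13 and 1.07 in uninjured pools. For each MMP2 read, TIMP2 had 0.308 and 0.357 reads in regenerating and 0.441 and 0.467 in uninjured pools. The groups did not overlap in any of these ratios, and the exact two-sided permutation p was 0.333 for each, the smallest possible. Each ratio follows from the others, so they are not separate results. Most single genes were separated too, with regenerating pools above for 40.3% and below for 41.0% of those tested. The share over other ratios was not computed.

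The TIMP2 genes rose themselves. TIMP2 (ENSDARG00000061226) averaged 490.3 ± 19.1 CPM in regenerating and 205 ± 11.3 CPM in uninjured fins, a log2 fold change of 1.26 ± 0.15. TIMP2 (ENSDARG00000075261) averaged 72.9 ± 5.97 CPM in regenerating and 13.2 ± 4.38 CPM in uninjured fins, a log2 fold change of 2.46 ± 0.22 (SD, n = 2 pools each; edgeR quasi-likelihood, adjusted p = 0.000179 and 4.18e-05). The list of inhibitors also held PCOLCE genes, whose products are enhancers and not inhibitors. With these included, 6 of its 8 tested members were called higher, 1 lower and 1 neither, at a median log2 fold change of 1.60. Among the inhibitors alone, both TIMP2 genes and RECK were higher, a2ml was lower and TFPI2 was not called. A median without the PCOLCE genes was not computed. Over all genes tested the shares were 29.5% higher and 30.1% lower. RECK, a membrane-anchored inhibitor of metalloproteinases, rose by 1.14 ± 0.14, and a2ml, of the alpha-2-macroglobulin family of protease traps, fell by 1.16 ± 0.27.

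The other 3 that rose in that list were PCOLCE genes, whose products enhance the trimming of procollagen by other proteases. PCOLCE2 (ENSDARG00000055575) rose by 4.01 ± 0.16 and pcolcea by 2.23 ± 0.19. Other TIMP genes were not analysed here.

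Proteases that can activate metalloproteinase precursors, and the inhibitors of those proteases, are given by their counts. Their list also held BSG, which is neither a protease nor such an inhibitor, and which did not pass. Among 20 tested genes 8 rose, 6 fell and 6 failed to pass, beside 29.5% higher and 30.1% lower of all genes tested. The list is therefore near what all genes did, and its median log2 fold change was 0.15. The cathepsin genes ctsla, CTSD and CTSK, for proteases of lysosomes, rose by 2.22 ± 0.16, 1.63 ± 0.14 and 1.80 ± 0.17. st14b, for the epithelial membrane protease matriptase, fell by 2.32 ± 0.13. One FURIN gene (ENSDARG00000070971), for the protease that activates membrane-type enzymes and stromelysin 3, rose by 1.26 ± 0.13, while the other (ENSDARG00000062909) had a log2 fold change of -0.10 ± 0.12 and did not pass (edgeR quasi-likelihood, adjusted p = 0.508). Genes of the plasminogen system were also mixed, with log2 fold changes of 2.56 ± 0.37 for plaua and -0.69 ± 0.12 for PLAU.

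Genes for the matrix proteins that these enzymes cut rose almost throughout. Among 33 tested genes 32 rose, 0 fell and 1 failed to pass, beside 29.5% higher and 30.1% lower of all genes tested. The median log2 fold change was 2.51. Both TNC genes, for the matrix protein tenascin C, rose by 6.43 ± 0.22 and 4.87 ± 0.17. NID2, for a basement membrane linker, rose by 4.21 ± 0.15. The gene that did not pass was LAMB2, for a laminin chain, at a log2 fold change of -0.21. Of the fibrillar collagen genes, col1a1a rose by 4.08 and COL1A2 by 2.83.

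Members of the AP-1 and Ets transcription factor families, which bind regulatory DNA of metalloproteinase genes in mammals, included genes that rose and genes that fell. Of 21 tested AP-1, Ets and Runx genes, 12 rose, 8 fell and 1 did not pass, and the median log2 fold change was 0.64. Among all genes tested 29.5% were higher and 30.1% lower. The Ets family genes FLI1, ETV4 and etv5b rose by 1.78 ± 0.14, 1.75 ± 0.16 and 1.36 ± 0.12. FLI1 is also listed among the endothelial markers. ELF3, another Ets family gene, fell by 1.15 ± 0.24. JUND, of the AP-1 family, fell by 2.46 ± 0.19. FOSB had a log2 fold change of -4.38 ± 0.44 and JUN one of -0.98 ± 0.15, while FOSL2 and ETS1 rose by 1.19 ± 0.13 and 1.18 ± 0.17.

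**Figure D5:**
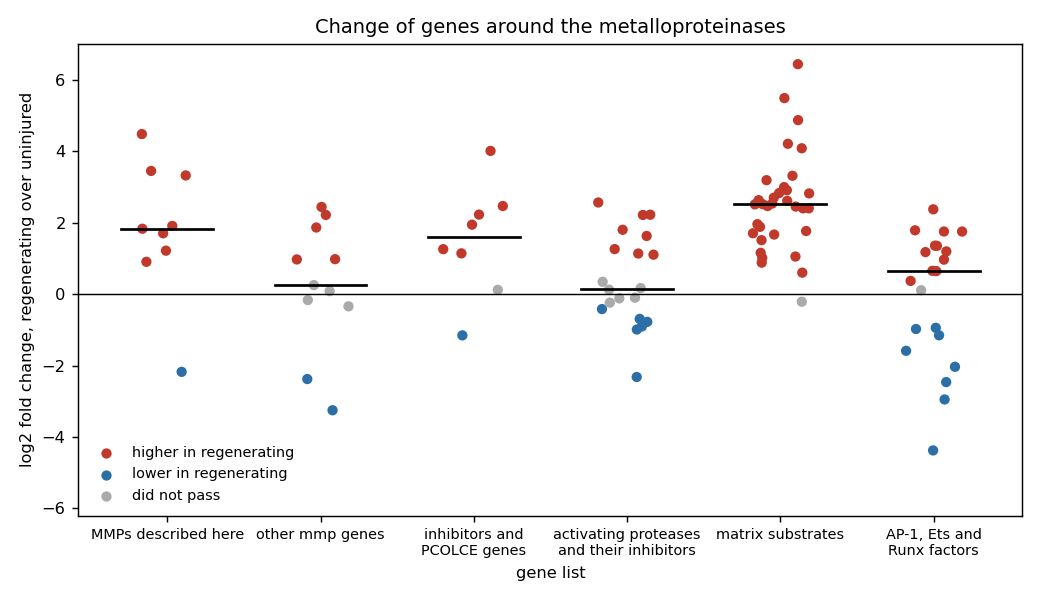
Log2 fold change, regenerating over uninjured, of each tested gene in the 9 metalloproteinases and 5 lists, coloured by whether it was called higher, lower or neither, with list medians as black lines. The matrix substrate genes have the highest median, 2.51, and 32 of the 33 are called higher, beside 29.5% of all genes tested.

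Markers of cell types moved between the same groups, and their part in the changes of the metalloproteinase genes was not tested. All marker counts below stand beside 29.5% higher and 30.1% lower of all genes tested. Of 18 fibroblast and blastema markers 16 rose and 1 fell, and their summed level was 8814 to 10131 CPM in regenerating and 980.2 to 1000.1 CPM in uninjured pools. Of 14 osteoblast markers 11 rose and 1 fell, with 9857 to 11402 CPM in regenerating and 449 to 510.4 CPM in uninjured pools, and the collagen gene COL10A1 gave most of it in regenerating pools. Of 14 endothelial markers 12 rose, with 270.2 to 335 CPM in regenerating and 115 to 121 CPM in uninjured pools.

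The summed level of epidermal markers lay lower. Of 13 basal epidermal markers 3 rose and 7 fell, at 29178 to 32710.3 CPM in regenerating and 76486 to 97861 CPM in uninjured pools. Most of these sums came from krt5, which did not pass, at a log2 fold change of -1.45 (edgeR quasi-likelihood, adjusted p = 0.108). Of the next most abundant genes, krt15 fell by 1.99 and col17a1b rose by 0.61. Of 13 markers of the intermediate and superficial epidermis 0 rose and 9 fell, at 22832 to 25008 CPM in regenerating and 55195 to 67721 CPM in uninjured pools. mmp30, mmp20a and MMP28 also fell, as did 30.1% of all genes tested, and a link between them and these markers was not tested.

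Lists of white blood cell genes are given because such cells make MMP9 and MMP13 in other settings. How specific each listed gene is to these cells was not tested. Of 9 tested genes in the neutrophil list 0 rose and 6 fell, among them lyz, for lysozyme, at 0.298 ± 0.0549 CPM in regenerating and 3.22 ± 0.196 CPM in uninjured fins (SD, n = 2 pools each). The regenerating values of lyz rested on 13 and 18 counts. For 5 symbols of the neutrophil list, mpx among them, no gene was found. CSF3R did not pass, at 7.17 and 4.55 CPM in regenerating and 3.93 and 4.31 CPM in uninjured pools. The summed level of the list was 1364 to 1499.9 CPM in regenerating and 1335 to 1354 CPM in uninjured pools, most of it from s100a10b. Of 20 genes in the macrophage list 11 rose and 6 fell. Their summed level was 1153 to 1190.2 CPM in regenerating and 2553 to 3350.4 CPM in uninjured pools, most of it from cd74a and cd74b, which both fell. Among the 11 that rose, marco, havcr1 and c1qa had log2 fold changes of 2.33 ± 0.25, 2.79 ± 0.23 and 1.74 ± 0.22. Among the 6 that fell, ptprc and cybb had log2 fold changes of -1.12 ± 0.16 and -0.34 ± 0.12. Several of the 20 are gene IDs of the same symbol, MFAP4, which changed in both directions. No gene was found for 5 symbols of the macrophage list, csf1ra and the mpeg1 symbols among them. Of 11 markers of osteoclasts, the cells that resorb bone, 6 rose and 2 fell, at 774 to 919 CPM in regenerating and 524 to 608 CPM in uninjured pools. CTSK, also listed among the activating proteases, gave 599 and 497 CPM of the regenerating sums and 163 and 152 CPM of the uninjured sums. The 2 that fell, ca2 and ITGB3 (ENSDARG00000056767), gave the next largest parts of the sums, so the higher sum in regenerating pools rests on CTSK. Genes with smaller parts also rose, among them the other ITGB3 gene (ENSDARG00000045070) by 1.62 ± 0.28 and ACP5 by 3.04 ± 0.37. No marker found in these lists was at 0 in all libraries.

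Only tested genes with a symbol, outside the family, were searched for likeness. Of these, the closest to mmp11b in log2 CPM over the 4 libraries were EFEMP2, NID2 and KPNA2, at Euclidean distances of 0.42, 0.68 and 0.74. EFEMP2, for a protein of elastic fibres, averaged 189 ± 27.5 CPM in regenerating and 9.06 ± 1.09 CPM in uninjured fins (SD, n = 2 pools each). Those closest to mmp30 were si:dkey-14d8.19, pimr136 and ponzr6, at distances of 0.35, 0.36 and 0.40. In ponzr6 too the spread between uninjured pools was wide, at 9.46 ± 3.80 CPM, against 2.26 ± 0.431 CPM in regenerating fins (SD, n = 2 pools each). With 2 groups, this measure finds genes of like level and like change, and it describes 4 libraries only.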

How the data were processed

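RNA of 2 pools of regenerating and 2 pools of uninjured fins was analysed from tables deposited by the authors, which hold raw counts of reads per Ensembl gene, 1 column for each pool. Per the submitters' processing notes CASAVA, TopHat and edgeR were used with genome build Zv9, and the column names point to TopHat's accepted alignments, per the file headers. How reads were assigned to genes, with which annotation and strand setting, and all versions of these tools are not stated in the labels or headers, so reads of close paralogs and of overlapping or antisense genes may be misassigned.

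Genes were filtered with filterByExpr (minimum count 10, minimum total 15), scaled with edgeR's TMM factors (trimmed mean of M values) and compared with edgeR's quasi-likelihood test (non-legacy estimation, group as the only term), fitted on all genes with Benjamini-Hochberg adjustment over all of them and a threshold of 0.05. Log2 fold changes are regenerating over uninjured, with standard errors and 95% intervals from that fit. CPM is TMM-scaled, and n is the number of pools. The distance behind gene likeness used log2(CPM + 0.5). The test was checked on simulated counts in which far fewer genes changed than in these data. Its behaviour under a change as broad as here was not tested. Versions were R 4.3.3, edgeR 4.0.16, DESeq2 1.42.0, Python 3.11.15 and matplotlib 3.10.9.

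The members, lists and tests were chosen with earlier results of these data known. Gene names were looked up by Ensembl ID, and 40 of 227 list symbols found no gene. List symbols were matched exactly or, with a paralog suffix dropped, to a symbol in capitals. Named were all genes with an mmp symbol and, of each pathway list, the 3 called genes with the smallest adjusted p in the commoner direction and 1 in the other. From cell type lists, up to 3 of the most abundant genes were named. RECK, TIMP2 (ENSDARG00000061226), LAMB2, col1a1a, COL1A2, FURIN, plaua, PLAU, FOSB, JUN, FOSL2, ETS1 and lyz were added after their values were seen. So were CSF3R, MFAP4, marco, havcr1, c1qa, ptprc, cybb, ELF3, BSG, ACP5 and ITGB3 (ENSDARG00000045070). Gene neighbours came from the RefSeq annotation of GRCz12tu. Transcript lengths were not used, so levels are not ranked between genes.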

Additional observations from a re-analysis of the deposited data

How the results depend on the processing

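The counts of called genes and the log2 fold changes of the mmp genes were recomputed with other size factors, library totals, no filter, a filter of 10 CPM in 2 libraries, DESeq2, legacy estimation, a replicate block and each library left out. In all of these 8 of the 9 metalloproteinase genes were higher, and mmp30 was lower wherever it was tested. The filter of 10 CPM removed mmp30, giving 0 lower genes, and tested fewer genes, which gave 4384 higher and 4461 lower in all, 3 higher and 1 lower among the other mmp genes, 0 lower inhibitors and 6 higher AP-1, Ets and Runx genes. With exact symbol matches only, 2 genes of the list of inhibitors and PCOLCE genes, RECK and pcolcea, were higher among 4 tested. Of the matrix substrates 16 were higher among 17 tested. Under scaling by library totals log2 fold changes shifted by a median of 0.21, and 61.8% of called genes were higher, against 49.5% with TMM. MMP19, never called, reversed its log2 fold change under that scaling (0.051) and ranged from -0.47 to 0.080 with 1 library left out, and mmp25b, also never called, ranged from -0.12 to 0.87. Leaving out 1 library gave 8 higher and 1 lower metalloproteinase genes each time, and 5967 to 7441 higher and 5889 to 7176 lower genes in all. Replicate numbers are shared by the groups, but same-numbered pools did not deviate together (correlation across genes of -0.003), and a replicate block left 8 metalloproteinase genes higher and 1 lower, with mmp30 at -2.09. Ratios, shares, summed levels, marker lists and distances were not recomputed, and the planned levels per coding length were not run. MMP16, MMP19 and mmp25b, which were not called, had 11 to 53 counts per library.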
